A study of Homo sapiens with 12 samples.

Results

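The genes described here are 10 members of the ATP-binding cassette (ABC) family: the drug efflux pumps ABCB1, ABCC1, ABCC2, ABCC3, ABCC4, ABCC5, ABCC6, ABCC10 and ABCG2, and the chloride channel CFTR. They were taken by gene symbol from 28278 rows of a count matrix, and all 10 had a row. Each was compared between cancer cells evolved in hydroxychloroquine (HCQ) and control cells of the same line.

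ABC transporters use ATP to move substrates across membranes. ABCB1 (P-glycoprotein), ABCG2 and the ABCC (MRP) proteins at the cell surface can pump drugs out of the cell and are known for multidrug resistance in tumors, where ABCB1 handles bulky hydrophobic compounds and the MRP proteins also handle conjugated anions. CFTR belongs to the same ABCC subfamily but opens as an ATP-gated anion channel, and it carries chloride and bicarbonate across the apical membrane of the gut and other epithelia. HCQ is a weak base that accumulates in lysosomes and is used clinically against malaria and autoimmune disease.

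The lines were OVCAR3, labelled ovarian cancer, and CCL218, labelled colorectal cancer and described in the study's text as p53 mutant and platinum-resistant, like OVCAR3. HCQ-evolved cells had received 15 pulses of HCQ (20 to 50 µM), each lasting 48 h and followed by recovery, while control cells were passaged without drug on a paired plate. All cells, controls too, then grew for 7 days without drug before RNA was taken, so the values describe cells in drug-free medium. Labels give passage 15 for HCQ-evolved and passage 19 for control pools, and the difference in passage and the exposure to HCQ cannot be told apart. A library is a pool of 31 wells from the left (L), middle (M) or right (R) of a plate, each of the 4 groups has 3 such pools from a single plate, and p-values thus measure the spread between pools of a plate. A pool averages many separately passaged wells, and in such bulk RNA fewer expressing cells and less RNA per cell cannot be told apart.

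The 12 libraries held 31147822 to 59965861 counts. A gene with 3 counts or fewer in a pool, which is 0.05 to 0.0963 CPM (counts scaled to the library total), was taken as not detectable, a limit that covers counting error only. Libraries differed in how strongly levels followed transcript length: the rank correlation of each library's deviation with length, over genes, ran from -0.511 in control CCL218 pool L to 0.567 in HCQ-evolved OVCAR3 pool R, and both signs occurred in each of the 4 groups. Libraries labelled OVCAR3 carried colorectal markers such as VIL1 (241 CPM) and LGALS4 (730 CPM), with 10 of 12 at 1 CPM or more on average in controls. Of 12 ovarian markers 6 reached 1 CPM on average in controls labelled OVCAR3 and 5 in those labelled CCL218, while SOX17, EMX2, ESR1 and HOXD3 were at or under the limit in all pools of both labels. MUC16 averaged 22.4 CPM in OVCAR3 and 8.65 CPM in CCL218 controls, FOLR1 4.93 and 2.56 CPM, and MSLN 14.3 and 63.6 CPM. PAX8 was at 9.29 to 14.9 CPM in controls labelled OVCAR3 and 6.40 to 11.2 CPM in those labelled CCL218. The line names below are the labels.

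Of the 10 genes, CFTR was called lower in HCQ-evolved OVCAR3, while in HCQ-evolved CCL218 ABCC5 was called lower (edgeR quasi-likelihood test, Benjamini-Hochberg adjusted p under 0.05 over all genes tested). ABCB1 was called higher in HCQ-evolved CCL218, but of its controls only pool R reached the minimum level for the test. It would not have entered without the HCQ-evolved pools. In both lines the evolved pools were above all controls for ABCG2 and below them for ABCC5. However, ABCG2 passed the test, which used no block for plate position, in neither line, and ABCC5 did not pass it in OVCAR3. Levels are TMM-scaled CPM, meaning CPM after a correction for library composition, with 1 value per pool in the order L, M, R.

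**Figure D1:**
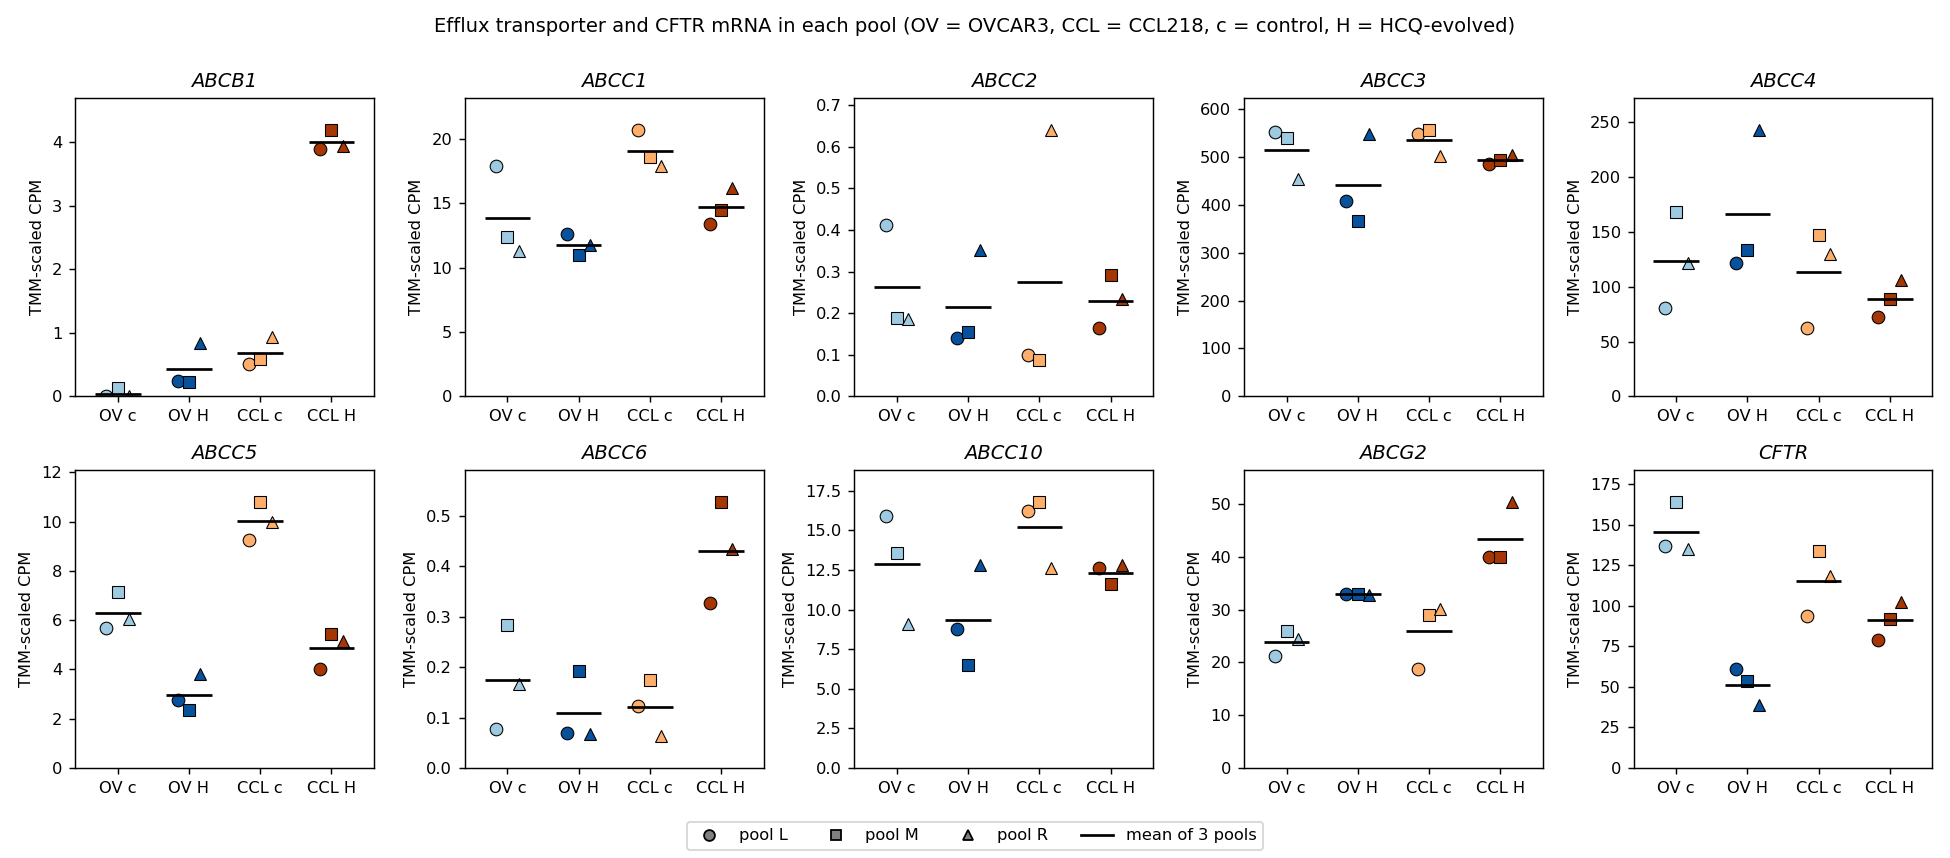
TMM-scaled CPM of the 10 members in each pool (vertical axes start at 0 and differ between panels). Circles, squares and triangles are pools L, M and R, and black lines are means of 3 pools. ABCB1 in HCQ-evolved CCL218 stands at 3.90 to 4.19 CPM above all other pools, CFTR in HCQ-evolved OVCAR3 at 38.6 to 60.9 CPM lies below all controls, and the ABCC5 pools of both evolved groups lie below their controls.

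The 3 members that passed a test have the promoters below, which are shown so that the starts of these genes can be set beside their RNA. The sequences are RefSeq promoter windows on GRCh38.p14 (250 bases before to 50 after a start), read 5′ to 3′ on the gene's strand. Capitals mark any of 5 short motifs found on either strand. These are GGGCGG, known as the GC box, the CCAAT box, the hypoxia response core written ACGTG, the antioxidant response core written TGACNNNGC, and the TATA box written TATAAA. ABCB1 lies at chr7:87600835-87601134, minus strand, ABCC5 at chr3:184017835-184018134, minus strand, and CFTR at chr7:117479775-117480074, plus strand.
ABCB1: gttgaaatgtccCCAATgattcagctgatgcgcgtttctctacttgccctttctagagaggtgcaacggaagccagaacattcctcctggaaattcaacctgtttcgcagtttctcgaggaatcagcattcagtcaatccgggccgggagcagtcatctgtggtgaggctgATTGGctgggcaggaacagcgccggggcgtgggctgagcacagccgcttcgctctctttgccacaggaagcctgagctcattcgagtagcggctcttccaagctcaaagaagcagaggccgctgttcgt
ABCC5: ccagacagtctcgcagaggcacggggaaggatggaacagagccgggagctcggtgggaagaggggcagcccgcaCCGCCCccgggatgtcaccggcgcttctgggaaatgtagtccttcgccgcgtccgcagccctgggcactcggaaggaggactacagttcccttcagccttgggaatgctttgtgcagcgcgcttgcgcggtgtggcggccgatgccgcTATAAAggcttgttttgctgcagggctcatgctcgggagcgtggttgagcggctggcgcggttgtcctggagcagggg
CFTR: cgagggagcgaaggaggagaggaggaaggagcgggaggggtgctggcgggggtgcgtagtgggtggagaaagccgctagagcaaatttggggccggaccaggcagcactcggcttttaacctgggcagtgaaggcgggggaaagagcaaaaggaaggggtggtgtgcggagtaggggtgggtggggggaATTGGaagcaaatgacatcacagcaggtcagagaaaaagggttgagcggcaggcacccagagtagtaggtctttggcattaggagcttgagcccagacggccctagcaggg

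The ABCB1 window holds the CCAAT box once on each strand, printed as ATTGG where it is reversed, and the CFTR window holds it once, on the minus strand of the gene. The ABCC5 window holds 1 GC box, printed reversed, and 1 TATA box. These letters are common: of 35116 promoter windows of this length, 34.6% hold the CCAAT box, 45.0% the GC box and 11.5% the TATA box, while the hypoxia core is in 21.4% and the antioxidant core in 13.3%. The last 2 motifs were not in the windows printed. Of the 10 members, 8 had an entry. ABCB1 also has a second, upstream window at chr7:87713246-87713545 with none of the 5 motifs, and counts per gene do not tell the starts apart. A match is a description of the letters only.

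ABCB1 encodes P-glycoprotein and lies on chromosome 7 (87503017 to 87713323, minus strand, GENCODE 44 on hg38). In CCL218 it was at 0.516, 0.587 and 0.939 CPM in control pools and at 3.90, 4.19 and 3.95 CPM in HCQ-evolved pools. The HCQ-evolved pools lay close together and all stood above every control pool. Its log2 fold change was 2.54 (standard error 0.268, 95% confidence interval 1.92 to 3.17, adjusted p = 0.00404, edgeR), which is 5.84-fold. The filter for the test needed 1 CPM, before TMM scaling, in 3 libraries. All HCQ-evolved pools reached it, but of the controls only pool R did, with 44 counts among 43572715. Without the HCQ-evolved pools the gene would not have been tested. Counts of members called thus leave it out unless they say that it is included. Without that filter, where entry did not depend on those pools, the log2 fold change was 2.58 (adjusted p = 0.000158, edgeR). The call held in all 8 other settings tried and without any of the 6 pools, with log2 fold changes of 2.38 to 2.85. Apart from the fit without a filter, all of these applied the same filter. ABCB1 entered them only through its HCQ-evolved pools, so they are no support apart from that choice.

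In OVCAR3, ABCB1 had 0, 4 and 0 counts in control pools and 14, 12 and 50 counts in HCQ-evolved pools, or 0.245, 0.231 and 0.837 CPM. All HCQ-evolved pools were above all controls, and pool R was the highest. With read pairs counted once, the summed ratio was 14 (exact 95% interval 3.63 to 120, counting error only), and the gene lay under the filter for the test within OVCAR3. In a fit of all 12 libraries, which ABCB1 would not have entered without the HCQ-evolved CCL218 pools, its log2 fold change in OVCAR3 was 3.63 (standard error 0.929, adjusted p = 0.0324, edgeR). Without a filter within OVCAR3 it was 3.62 and was not called (adjusted p = 0.114). The highest OVCAR3 pool stayed below every HCQ-evolved CCL218 pool. The difference in the log2 fold change between the lines was -1.08 (CCL218 minus OVCAR3, 95% confidence interval -3.56 to 1.4, adjusted p = 0.999, edgeR), an interval too wide to order them.

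RUNDC3B overlaps ABCB1 on the other strand and was at 0 to 0.234 CPM in the 12 pools. Its 0 to 0.0334 CPM in HCQ-evolved CCL218 compare with 3.90 to 4.19 CPM for ABCB1. ABCB1 itself was higher in control CCL218 than in control OVCAR3 without overlap (log2 difference 4.26, standard error 0.906, adjusted p = 0.0247, edgeR). Of the control pools only CCL218 pool R reached 1 CPM before TMM scaling. The gene would not have entered this comparison without the HCQ-evolved CCL218 pools (adjusted p = 0.0106, edgeR without a filter). With 2 of 3 OVCAR3 control pools at 0 counts that size is loosely set, from 3.50 to 8.12 with 1 pool left out. It was no longer called without control OVCAR3 pool L (adjusted p = 0.106) or R (0.13), or control CCL218 pool M (0.0637) or R (0.0977). Of the other 7 members tested between the control lines edgeR called 0, DESeq2 1 and limma voom 0, where edgeR called 3.42% of all genes. An unadjusted p under 0.05 was seen for 2 of them (14.5% of all genes), and pools did not overlap for 2 (17.8%).

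ABCG2, also called BCRP, is an efflux pump of broad substrate range on chromosome 4 (88090150 to 88231628, minus strand). In OVCAR3 it was at 21.2, 25.9 and 24.4 CPM in control pools and at 33.0, 33.0 and 32.7 CPM in HCQ-evolved pools. In CCL218 it was at 18.8, 28.9 and 30.2 CPM in control pools and at 39.9, 39.9 and 50.4 CPM in HCQ-evolved pools. In both lines every HCQ-evolved pool was above every control pool, and among the controls CCL218 pool L was the lowest.

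The log2 fold change of ABCG2 was 0.48 in OVCAR3 (standard error 0.176, adjusted p = 0.227) and 0.74 in CCL218 (standard error 0.21, adjusted p = 0.0869, edgeR), so neither passed. Plate positions paired the CCL218 pools only in part. With the position as a block ABCG2 was called there, at a log2 fold change of 0.76 (adjusted p = 0.0167, edgeR). It was also called by DESeq2 (adjusted p = 0.0152), with all 12 libraries (0.0422) and without control pool L, where its log2 fold change was 0.55 (0.0103). In OVCAR3 no setting called it, with adjusted p from 0.0771 to 0.587. The lines differed by 0.28 in log2 fold change (95% confidence interval -0.29 to 0.85, adjusted p = 0.98, edgeR).

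ABCC1 (MRP1), a pump of glutathione conjugates and many anticancer drugs, was at 17.9, 12.4 and 11.3 CPM in OVCAR3 control pools and at 12.6, 11 and 11.8 CPM after evolution. CCL218 control pools held 20.7, 18.6 and 17.9 CPM, and evolved pools held 13.4, 14.5 and 16.2 CPM. The OVCAR3 pools overlapped and the CCL218 pools did not, with all evolved pools lower. Its log2 fold changes of -0.22 (adjusted p = 0.682) and -0.38 (standard error 0.137, adjusted p = 0.146, edgeR) did not pass, and no other setting called either of them.

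ABCC3 (MRP3), a basolateral pump of glucuronides and bile acids, had the highest level of the 10 genes. It was at 553, 539 and 453 CPM in OVCAR3 control pools and at 408, 367 and 547 CPM after evolution, where pool R lay among the controls. CCL218 control pools held 547, 556 and 501 CPM, and evolved pools held 485, 494 and 504 CPM. The log2 fold changes were -0.20 (95% confidence interval -0.70 to 0.30) and -0.12 (-0.38 to 0.15), so a change of more than 0.38 on the log2 scale in either direction lies outside the interval in CCL218.

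ABCC4 (MRP4), which exports cyclic nucleotides, prostaglandins and nucleoside drugs, was at 80.6, 168 and 122 CPM in OVCAR3 control pools and at 122, 134 and 243 CPM after evolution. In CCL218 it was at 62.2, 147 and 130 CPM in control pools and at 72.0, 89.2 and 106 CPM after evolution. The control pools alone spread more than 2-fold in both lines, with pool L lowest. The log2 fold changes, 0.45 in OVCAR3 (adjusted p = 0.605) and -0.34 in CCL218 (adjusted p = 0.52, edgeR), moved with single pools. Without HCQ-evolved pool R the first shrank to 0.05. Without control pool L the second grew to -0.64 and was called (adjusted p = 0.00965, edgeR).

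ABCC5 (MRP5), a pump of cyclic GMP and nucleotide analogs, lies on chromosome 3 (183919934 to 184017939, minus strand). In CCL218 it was at 9.24, 10.8 and 10 CPM in control pools and at 4.02, 5.45 and 5.17 CPM in HCQ-evolved pools. In OVCAR3 it was at 5.67, 7.13 and 6.05 CPM in control pools and at 2.76, 2.35 and 3.82 CPM in HCQ-evolved pools. In both lines all evolved pools were below all controls, with each evolved mean near 0.5 of the control mean.

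In CCL218 the log2 fold change of ABCC5 was -1.04 (standard error 0.17, 95% confidence interval -1.44 to -0.64, adjusted p = 0.0167, edgeR), or 2.06-fold lower. All 8 other settings called it, including the block for plate position (adjusted p = 0.00519), but with 5 pools in place of 6 only the fit without control pool L did (0.000876). Without control pool M the adjusted p was 0.0508, and without R it was 0.075. Without HCQ-evolved pools L, M or R it was 0.0837, 0.0945 or 0.0929, and the log2 fold change stayed between -1.11 and -0.92.

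In OVCAR3 the log2 fold change of ABCC5 was -1.06 (standard error 0.27, 95% confidence interval -1.68 to -0.43, unadjusted p = 0.00487, adjusted p = 0.101, edgeR), 2.08-fold lower and not called. DESeq2 (adjusted p = 0.00585), the removal of the trend with length and GC content (0.0162), the fit of all 12 libraries (0.00877) and the fit without HCQ-evolved pool R (0.0248) did call it. The difference between the lines was 0.04 (95% confidence interval -0.60 to 0.67). ABCC5-AS1, on the other strand, had at most 0.0516 CPM in any pool. Untreated CCL218 had more ABCC5 than untreated OVCAR3 in every pool (log2 difference 0.68, standard error 0.205, adjusted p = 0.118, edgeR), which did not pass.

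ABCC10 (MRP7), a pump of taxanes and other drugs, was at 15.9, 13.6 and 9.08 CPM in OVCAR3 control pools and at 8.75, 6.50 and 12.8 CPM after evolution. CCL218 control pools held 16.2, 16.8 and 12.6 CPM, and evolved pools held 12.6, 11.6 and 12.8 CPM. Pools overlapped in both lines, and the log2 fold changes of -0.43 and -0.30 did not pass (adjusted p = 0.566 and 0.261, edgeR). DLK2 overlaps ABCC10 on the other strand at 0.501 to 2.51 CPM and was lower in evolved than in control pools of each line without overlap. The strand setting of the counting is not given in the sources used here, so reads of overlapping genes on opposite strands may not be told apart.

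ABCC2 and ABCC6 were near the limit of detection and lay under the filter for the test in both lines. ABCC2 (MRP2), an apical pump of conjugates, had at most 0.64 CPM in any pool, with ratios of evolved over control of 0.854 in OVCAR3 (exact 95% interval 0.40 to 1.74) and 0.817 in CCL218 (0.409 to 1.63). ABCC6, mutated in the mineralization disorder pseudoxanthoma elasticum, was at 0.123, 0.174 and 0.064 CPM in CCL218 control pools and at 0.328, 0.528 and 0.435 CPM after evolution, with all evolved pools higher and a summed ratio of 3.62 (1.68 to 9.15). In OVCAR3 its ratio was 0.633 (0.239 to 1.82). These intervals cover counting error only and not the spread between pools. Without a filter ABCC6 was not called in CCL218 (log2 fold change 1.85, adjusted p = 0.0892, edgeR).

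Values of ABCC6 are uncertain because the copies ABCC6P1 and ABCC6P2 are nearly identical to part of it. In every CCL218 pool ABCC6P1 had more reads than ABCC6 itself, at 0.836, 0.957 and 0.427 CPM in CCL218 control pools and 1.33, 1.55 and 1.54 CPM after evolution. The copy was thus higher in the same pools as ABCC6. In pool M of OVCAR3 it had fewer reads, with 4 counts against 9 in control and 8 against 10 in evolved cells.

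CFTR lies on chromosome 7 (117287120 to 117715971, plus strand). In OVCAR3 it was at 137, 164 and 135 CPM in control pools and at 60.9, 53.4 and 38.6 CPM in HCQ-evolved pools. All evolved pools lay below all controls, with pool R the lowest. The log2 fold change was -1.50 (standard error 0.219, 95% confidence interval -2.01 to -0.99, adjusted p = 0.0239, edgeR), or 2.83-fold lower.

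The size of this fall hardly moved between settings, at log2 fold changes of -1.64 to -1.34. The call held in 7 of 8 other settings, among them DESeq2 (adjusted p = 4.54e-08), but not with plate position as a block (0.0629). With a pool left out it held only without HCQ-evolved pool R (0.0085): without control pools L, M or R the adjusted p was 0.144, 0.0937 or 0.136, and without HCQ-evolved pools L or M it was 0.0615 or 0.0943.

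In CCL218, CFTR was at 93.9, 134 and 118 CPM in control pools and at 79.1, 91.9 and 102 CPM in HCQ-evolved pools. The pools overlapped, and the log2 fold change was -0.35 (standard error 0.17, 95% confidence interval -0.75 to 0.05, adjusted p = 0.253, edgeR). It was called with the length and GC trend removed (-0.50, adjusted p = 0.00819), with that and the block (0.0228), and without control pool L (-0.48, adjusted p = 0.0138).

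CFTR was the member with the strongest difference between lines, with a log2 fold change 1.17 higher in CCL218 than in OVCAR3 (standard error 0.276, 95% confidence interval 0.56 to 1.77, unadjusted p = 0.00135). Over all genes this did not pass (adjusted p = 0.0877, edgeR), although DESeq2 called it (0.00529). ABCB1 entered this test only through the HCQ-evolved CCL218 pools. With it included, none of the 8 members tested was called by edgeR or limma voom, with 1 at an unadjusted p under 0.05. Of all genes 0.872% were called, and 9.11% had such an unadjusted p.

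Genes that overlap the annotated span of CFTR had few reads. CTTNBP2, on the other strand, was at 1.24 to 5.98 CPM, CFTR-AS1 at 0 to 0.0772 CPM, ASZ1 at 0 to 0.148 CPM, and WNT2 had 0 counts in all pools. CTTNBP2 in OVCAR3 averaged 5.18 CPM in control and 3.21 CPM in evolved pools, against 145 and 51.0 CPM for CFTR.

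**Figure D2:**
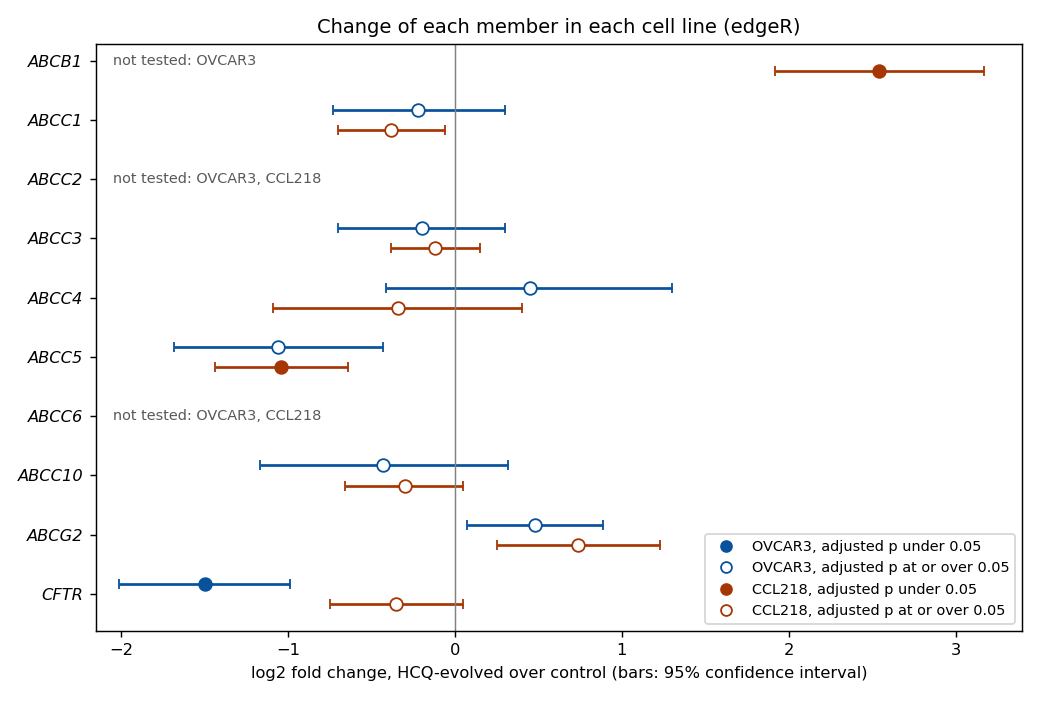
Log2 fold change of each tested member, HCQ-evolved over control, in OVCAR3 (blue) and CCL218 (brown), with 95% confidence intervals from edgeR. Filled points have an adjusted p under 0.05: CFTR in OVCAR3 at -1.50, and ABCB1 at 2.54 and ABCC5 at -1.04 in CCL218. Both ABCC5 points lie near -1.

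In OVCAR3, 7 of the 10 members could be tested and 1 was called, where 1.86% of 12204 genes were called. An unadjusted p under 0.05 was seen for 3 members and 16.2% of all genes. Pools did not overlap for 3 of the 7 (ABCG2 higher, ABCC5 and CFTR lower), against 25.7% of all genes tested. In CCL218, 7 were tested beside ABCB1 and 1 was called, against 6.46% of 12241 genes, and 3 had an unadjusted p under 0.05, against 25.2%. Pools did not overlap for 3 of them (ABCG2 higher, ABCC1 and ABCC5 lower), against 36.0% of all genes. The median log2 fold change was -0.22 over the 7 in OVCAR3 and -0.34 over the 7 in CCL218, beside 0.02 and -0.02 over all genes. In OVCAR3 2 of the 7 were above 0, and in CCL218 1 was. Most pumps were thus not called in either direction, and separated pools were common among all genes.

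**Figure D3:**
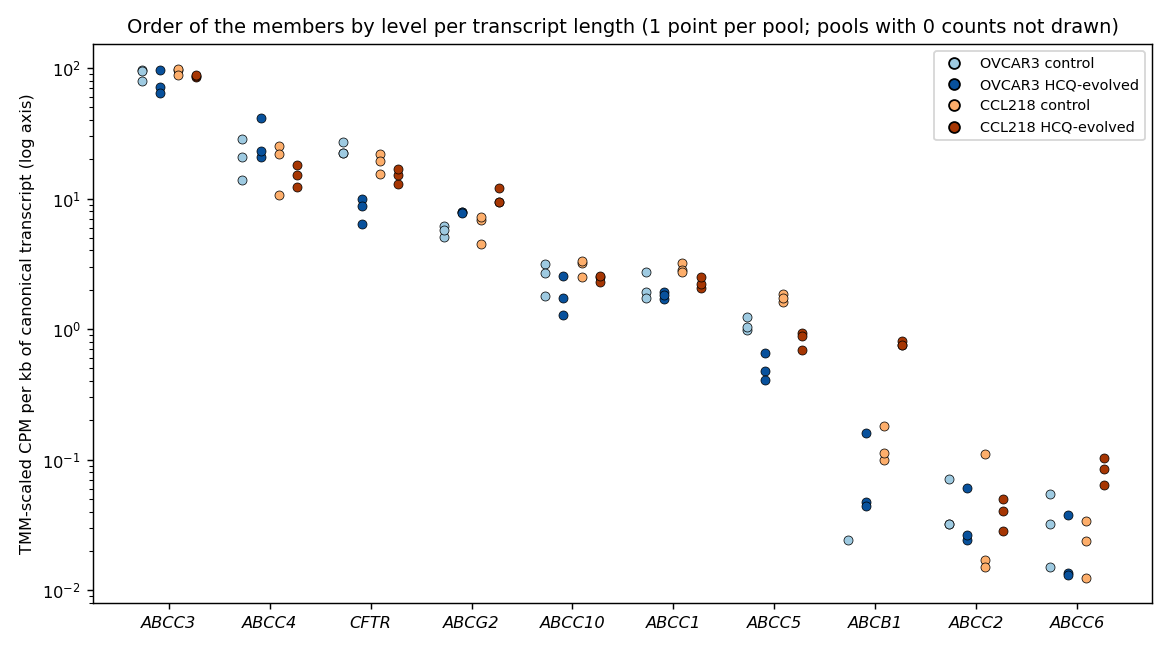
TMM-scaled CPM per kb of canonical transcript (logarithmic axis) for each member, with 1 point per pool in 4 groups and members ordered by mean level. ABCC3 is highest in every pool, and ABCB1, ABCC2 and ABCC6 are lowest, apart from ABCB1 in HCQ-evolved CCL218 at 0.749 to 0.805.

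Divided by transcript length, ABCC3 led with 64.5 to 97.6 CPM per kb over the 12 pools and overlapped no other member. In control OVCAR3, CFTR (24.0 ± 2.66 CPM per kb, SD, n = 3) and ABCC4 (21.1 ± 7.45) followed and did not differ beyond their spread. ABCG2 came next at 5.67 ± 0.571 CPM per kb, below every CFTR and ABCC4 pool. ABCC10 (2.55 ± 0.683) and ABCC1 (2.14 ± 0.543) overlapped, ABCC5 was at 1.09 ± 0.13, and ABCC2, ABCC6 and ABCB1 had at most 0.0711 CPM per kb in any control pool.

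After evolution OVCAR3 CFTR (8.40 ± 1.87 CPM per kb, SD, n = 3) overlapped with ABCG2 (7.82 ± 0.0465), which lay below it in every control pool. In HCQ-evolved CCL218 the order of the 7 highest genes was the same as in control CCL218, while ABCB1 rose from 0.131 ± 0.0435 to 0.771 ± 0.03 CPM per kb and there overlapped with ABCC5 (0.843 ± 0.13). Of the summed level per length of all 10 genes, ABCC3 made up 58.3% to 71.3% in any pool. CFTR made up 16.3% ± 0.69 in control and 7.00% ± 2.57 in evolved OVCAR3, and ABCG2 3.87% ± 0.445 and 6.36% ± 1.25. The sum itself was 147 ± 14.7 and 126 ± 26.8 CPM per kb in OVCAR3 and 146 ± 12.8 and 134 ± 8.05 in CCL218, which overlapped in both lines.

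The genes most like the called members were sought by the root mean square difference of centred log2 CPM over the 12 libraries, among 11691 genes. ABCB1 was nearest to FNBP1 (0.423) and NR3C2 (0.47), where the median gene differed by 1.19. FNBP1, a membrane-bending adaptor, averaged 4.41 and 9.43 CPM in control and evolved OVCAR3 and 11.3 and 24.0 CPM in CCL218. NR3C2, the mineralocorticoid receptor, averaged 1.81 and 2.46 CPM and then 3.92 and 9.74 CPM. ABCC5 was nearest to STXBP4 and SPRY4 (both 0.196, median 0.70). SPRY4, an inhibitor of receptor tyrosine kinase signaling, averaged 60.1 and 22.5 CPM in OVCAR3 and 79.5 and 41.9 CPM in CCL218.

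CFTR was nearest to VIL1 (0.205) and GCNT2, a glycan branching enzyme (0.207, median 0.688). VIL1, the microvillus protein villin, was at 237, 290 and 197 CPM in control OVCAR3 pools and at 133, 118 and 78.5 CPM in evolved pools, and averaged 187 and 185 CPM in CCL218. Villin is a marker of gut epithelium, and other colorectal markers were lower with CFTR in evolved OVCAR3 pool R, where LGALS4 was at 133 CPM against 490 and 457 CPM in pools L and M, and CDX2 at 0.803 CPM against 8.26 and 9.72 CPM. Summed over 12 colorectal markers, levels were 1720 to 2260 CPM in control and 967 to 1940 CPM in evolved OVCAR3, and 1850 to 2650 and 2130 to 2320 CPM in CCL218. None of the 9 tested in OVCAR3 was called by edgeR (2 by unadjusted p under 0.05, 2 by DESeq2 and 0 by limma voom). In CCL218 edgeR called 4 of 9 higher (CDX2, CDH17, GPA33 and CEACAM5), where it called 6.46% of all genes. There 5 had an unadjusted p under 0.05 (25.2% of all genes), and DESeq2 called 5 and limma voom 4. The part of these markers in the CFTR and ABCB1 results was not tested.

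Of 10 markers of fibroblasts, endothelium and blood 2 were tested in CCL218 and 3 in OVCAR3, and edgeR called CD68, a lysosomal protein of macrophages, higher in evolved CCL218 at 48.0 to 51.5 CPM against 11.2 to 14 CPM (log2 fold change 1.98, adjusted p = 0.00102). In OVCAR3 CD68 was at 26.8 to 41.7 CPM in evolved and 12.4 to 17.9 CPM in control pools without overlap (1.26, adjusted p = 0.051, edgeR), and DESeq2 (0.00011) and limma voom (0.0486) called it there. Their summed level was 15.6 to 17.0 CPM in control and 50.7 to 56.1 CPM in evolved CCL218, and 17.8 to 22.5 and 30.7 to 44.3 CPM in OVCAR3. In evolved CCL218 the collagen gene COL1A2, DCN and CD3E were at or under the limit of detection in every pool.

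Related genes were counted in 4 lists. The other ABC family members numbered 38, of which 19 were tested. Among those not tested ABCF1 had 0 CPM in every pool, TAP1 at most 0.0349 CPM and TAP2 at most 0.134 CPM. Whether low expression or the counting gave these values was not tested. Of the 19 none was called in OVCAR3 (median log2 fold change 0.23), where ABCB9, a lysosomal peptide transporter, had the smallest p (0.63, adjusted p = 0.166, edgeR). By unadjusted p, the mitochondrial transporters ABCB6 (0.0262) and ABCB10 (0.0239) and ABCB9 (0.0144) were under 0.05, and DESeq2 called 1 gene of the list and limma voom 0. In CCL218, ABCG1, a cholesterol exporter, was called higher (log2 fold change 0.61, adjusted p = 0.0362) and ABCA10 lower (-2.14, adjusted p = 0.0246, edgeR). The list median was -0.02, and edgeR called 6.46% of all genes there. In this list 4 of the 19 had an unadjusted p under 0.05, against 25.2% of all genes, and DESeq2 called 3 and limma voom 2. ABCG1 was at 35.9, 35.3 and 35.3 CPM in control and at 52.3, 61.1 and 49.9 CPM in evolved pools, while ABCA10 was at 1.55, 1.15 and 1.34 CPM and then at 0.185, 0.492 and 0.234 CPM. Both genes separated the groups. ABCA10 reached the minimum for the test in CCL218 only through its control pools, and without a filter its log2 fold change was -2.10 (adjusted p = 0.00913, edgeR).

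Of 22 transcription regulators linked to efflux pump genes, 20 were tested. None was called in OVCAR3 by edgeR (3 by unadjusted p under 0.05, 2 by DESeq2 and 1 by limma voom), where FOXA2, a forkhead factor of endoderm, had the smallest p (log2 fold change -2.35, adjusted p = 0.0587, edgeR), at 50.7, 36.6 and 34.7 CPM in control and 12.5, 8.28 and 2.88 CPM in evolved pools. FOXA2 was called lower in 7 of 8 other settings there, among them edgeR without a filter (0.0165), with the block (0.0369) and with all 12 libraries (0.00759). In CCL218, CDX2, the intestinal homeobox factor, was called higher (1.54, adjusted p = 0.00275), and FOXA1 lower (-0.56, adjusted p = 0.0308, edgeR). CDX2 was at 26.5, 21.2 and 22.0 CPM in control and 69.8, 62.2 and 71.3 CPM in evolved pools. There edgeR called 6.46% of all genes. Of the 20 regulators 5 had an unadjusted p under 0.05 (25.2% of all genes), and DESeq2 called 5 and limma voom 2. FOXA2 in CCL218 was not called (-0.84, adjusted p = 0.103, edgeR). With plate position, which paired these pools only in part, as a block it was called lower (-0.79, adjusted p = 0.0185), as it was by DESeq2 (0.0182). NFE2L2, the antioxidant response factor NRF2, had log2 fold changes of 0.12 and 0.13 and was not called.

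NR1I2, the xenobiotic receptor PXR that is known to induce ABCB1, was too low to test and was singled out after its values were seen. It had 0, 2 and 4 counts in control CCL218 pools and 18, 16 and 20 counts in evolved ones, or 0.369, 0.291 and 0.334 CPM. In OVCAR3 it had 2, 8 and 2 counts and then 4, 6 and 2 counts. The CCL218 groups did not overlap, and the OVCAR3 groups did. NR1I3, the related xenobiotic receptor CAR and also too low to test, lay the other way in CCL218, at 8, 8 and 7 counts in control and 7, 6 and 0 counts in evolved pools (0.149 to 0.197 CPM and 0 to 0.144 CPM), and its OVCAR3 groups overlapped.

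The list of CFTR trafficking partners and epithelial ion transport held 28 symbols, of which 26 had a row and 22 were tested. None was called in OVCAR3 by edgeR (3 by unadjusted p under 0.05, 1 by DESeq2 and 0 by limma voom), where KCNE3, a potassium channel subunit that supports chloride secretion, had the smallest p (log2 fold change -0.75, adjusted p = 0.155, edgeR). It was at 89.4, 97.5 and 98.7 CPM in control and 66.0, 63.4 and 39.1 CPM in evolved pools, which did not overlap. In CCL218, ANO1, a calcium-activated chloride channel, was called higher (0.96, adjusted p = 0.0178, edgeR). STX1A, a syntaxin that binds CFTR (-0.89, adjusted p = 0.049), and SLC4A4, a sodium bicarbonate cotransporter (-1.68, adjusted p = 0.0246), were called lower. There edgeR called 6.46% of all genes. Of the 22 genes 10 had an unadjusted p under 0.05 (25.2% of all genes), and DESeq2 called 8 and limma voom 3.

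ANO1 was at 410, 520 and 483 CPM in control CCL218 pools and at 786, 928 and 1040 CPM in evolved pools. SLC4A4 was at 5.46, 10.2 and 6.70 CPM and then at 2.01, 3.10 and 1.91 CPM, and in OVCAR3 at 1.6, 2.48 and 2.15 CPM and then 1.15, 0.54 and 0.201 CPM, without overlap in either line.

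Among 25 genes of conjugation and other drug efflux 20 were tested. GCLM, the modifier subunit of the enzyme that starts glutathione synthesis, was called higher in OVCAR3 (log2 fold change 1.21, adjusted p = 0.0484, edgeR). It was at 15.6, 19.1 and 20.6 CPM in control and 36.7, 37.7 and 51.7 CPM in evolved pools. There edgeR called 1.86% of all genes. Of the 20 genes 4 had an unadjusted p under 0.05 (16.2% of all genes), and DESeq2 called 1 and limma voom 1. GCLM was not called with plate position as a block (adjusted p = 0.107), although positions did not pair the OVCAR3 pools. None was called in CCL218 by edgeR (3 by unadjusted p under 0.05, 2 by DESeq2 and 0 by limma voom), where MSN, a membrane-cytoskeleton linker, had the smallest p (-0.42, adjusted p = 0.072). List medians were 0.06 and 0.21, beside 0.02 and -0.02 over all genes.

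Calls in these lists were less firm than their sizes. With 1 of 6 pools left out, CDX2 in CCL218 kept its call each time (adjusted p up to 0.0279), while ANO1 and SLC4A4 kept it in 2 of 6 fits (up to 0.122 and 0.128), and ABCG1, FOXA1 and STX1A only without control pool L (up to 0.213, 0.18 and 0.235 otherwise). ABCA10 lost it without HCQ-evolved pool L or R (0.111 and 0.127) and fell under the filter without a control pool, and GCLM in OVCAR3 kept it only without HCQ-evolved pool R (0.0275, otherwise up to 0.201). In the fit of all 12 libraries CDX2 (0.161), ABCG1 (0.249), FOXA1 (0.0678) and SLC4A4 (0.0641) were not called in CCL218.

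**Figure D4:**
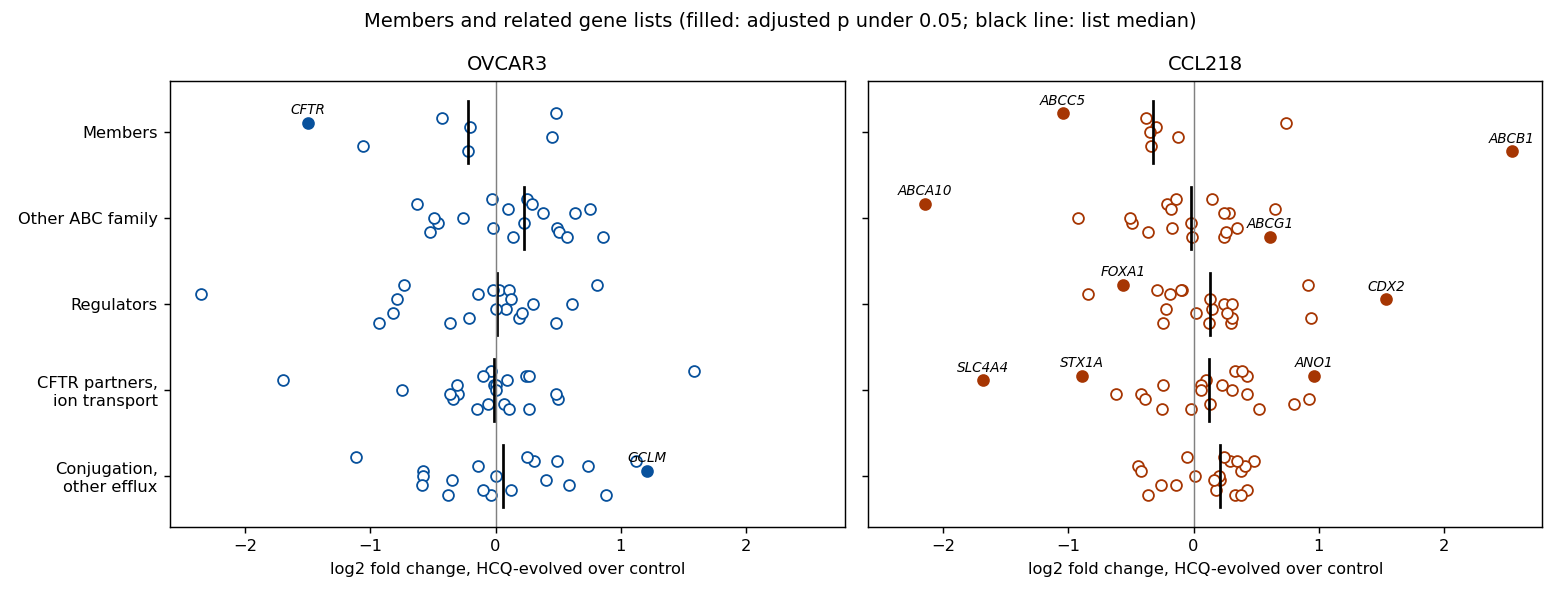
Log2 fold change, HCQ-evolved over control, of every tested gene among the members and 4 related lists, in OVCAR3 (left) and CCL218 (right). Filled and named points have an adjusted p under 0.05 and black lines are list medians, that of the members in CCL218 with ABCB1 included, which lie between -0.32 and 0.23. ABCB1 at 2.54 in CCL218 is the highest point shown.

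**Figure D5:**
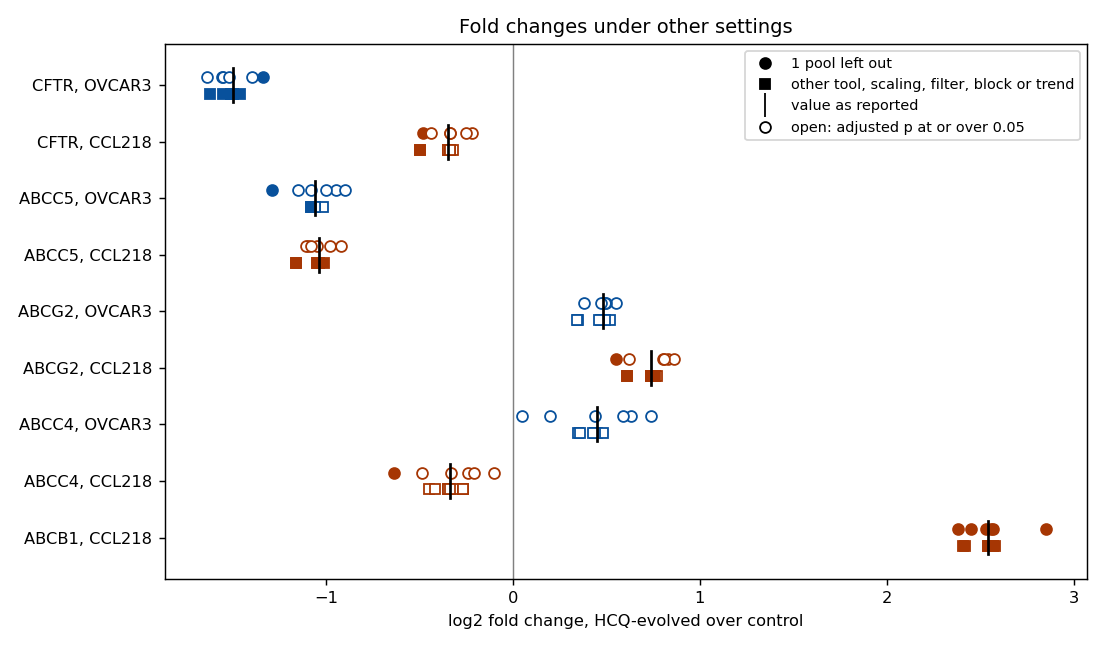
Log2 fold change of 5 members under the other settings, with circles for fits without 1 pool and squares for another tool, scaling, filter, block or trend, and a black line at the reported value. Filled symbols have an adjusted p under 0.05. ABCB1 in CCL218 is filled throughout, CFTR in OVCAR3 stays between -1.64 and -1.34 while its circles are mostly open, and ABCC4 moves most between pools. Apart from the fit without a filter, ABCB1 entered these fits only through its HCQ-evolved pools.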

How the data were processed

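PolyA RNA of 12 pools was sequenced. Per the labels and methods, the authors aligned 150 bp reads to hg38 with STAR, removed duplicates and deposited featureCounts counts per gene, which were used as given (0 columns without a sample). Low counts were mostly even (76.3% to 81.6% of entries of 1 to 4), so intervals of sparse genes used counts divided by the 2 reads of a pair. Duplicate removal compresses high counts.

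Tests used genes reaching 1 CPM, before TMM scaling, in 3 or more libraries. They were run in edgeR 4.0.16 (TMM, robust quasi-likelihood F test, R 4.3.3), each line alone, and interaction and control contrasts in a fit of 12 libraries. Adjusted p used Benjamini-Hochberg over all genes tested. Alternatives were RLE scaling, DESeq2 1.42.0, limma voom 3.58.1, no filter, plate position as a block, removal of a length and GC trend, other library sets and each pool left out. The pipeline was tested on simulated counts.

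After group means were removed, same-position pools correlated at 0.565 (L), 0.295 (M) and 0.231 (R) in CCL218. Control pool M correlated more with HCQ-evolved pool R (0.5), so position paired these pools only in part. In OVCAR3 same-position pools correlated at 0.443, -0.715 and -0.52, and positions did not pair them. The reported tests used no block, and plate position entered only as an alternative in both lines.

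Lengths and coordinates came from GENCODE 44 (25723 of 28278 symbols, 91.0%, matched). All members were named, list genes when called or, where none was, by smallest p, and the 2 genes most like each called member. The members and lists were chosen with earlier results of these data known.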

Additional observations from a re-analysis of the deposited data

How the results depend on the processing

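With 3 pools of a plate per group, p-values rest on few samples, and depth leaves ABCB1 in OVCAR3 and ABCC2 and ABCC6 in both lines near the counting limit. In OVCAR3, where 1 member was called, DESeq2 called 2, removal of the length and GC trend 2 and the replicate block 0. The fit of all 12 libraries called 3, with ABCB1 included, which entered it only through the HCQ-evolved CCL218 pools. Fits without a pool called 0 to 2. Over all genes, in place of 227, these fits called 1105, 1075, 81, 1165 and 3 to 557. In CCL218, where 2 were called (ABCB1 included, here and between control lines), removal of the trend called 4, also with the block, and fits without a pool 1 to 5. Over all genes, in place of 791, these fits called 2369, 2084 with the block and 102 to 3047. Counts of members thus moved with those of all genes. Plate position as a block changed no call of a member in CCL218 other than that of ABCG2. For the interaction DESeq2 called 1 member in place of 0. Between control lines, DESeq2 called 2 in place of 1, the control libraries alone 0, and fits without a pool 0 to 2. The causes were not tested.

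Signs turned only among small differences that passed no test. For the interaction, with the trend removed and with the block added, ABCC3 went from 0.11 to -0.026 and -0.025 and ABCC5 from 0.04 to -0.1 and -0.11, and without a pool ABCC3 ran from -0.0044 to 0.30, ABCC5 from -0.11 to 0.26 and ABCC10 from -0.05 to 0.45. Between control lines the same 2 settings gave ABCC3 -0.11 and -0.11 (0.05 before) and ABCG2 -0.06 and -0.063 (0.12 before), and without a pool ABCC3 ran from -0.033 to 0.11 and ABCC4 from -0.36 to 0.16.

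Over all genes the counts moved more. In OVCAR3 227 genes were called, against 1105 by DESeq2, 549 without a filter, 81 with the block, 1075 with the trend removed, 442 with both, 1165 with 12 libraries and 3 to 557 without a pool. In CCL218 791 were called, against 2172, 1744 with the block, 2369 with the trend removed, 2084 with both and 102 to 3047 without a pool. The interaction called 110, against 463 by DESeq2, 35 with the block, 465 with the trend removed and 38 to 212 without a pool. The control contrast called 431, against 925, 743 with the trend removed, 818 with the block too, 249 from control libraries alone and 181 to 790 without a pool.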

Other observations

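Among ABC family members under the filter, ABCA12, a lipid transporter of the skin barrier singled out after its values were seen, had 975 counts (16.3 CPM) in HCQ-evolved OVCAR3 pool R, against 23 and 46 counts in pools L and M and 0 to 10 counts in the OVCAR3 controls. In CCL218 it had 0 to 6 counts in any pool. ABCA1, an exporter of cholesterol to lipoproteins, was at 44 CPM in the same OVCAR3 pool R and at 7.37 and 8.16 CPM in L and M, with 8.68 to 13.4 CPM in controls. Pool R also held the most ABCC4 (243 CPM) and ABCB1 (0.837 CPM) and the least CFTR (38.6 CPM) of the HCQ-evolved OVCAR3 pools. These are values of 1 pool, with no replicate. The rank correlation of the library's deviation with transcript length was 0.567 in pool R, against -0.409 in L and -0.438 in M. Its part in these values was not tested.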
